A study of Mus musculus with 18 samples.

Results

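Branched-chain amino acid catabolism genes encode the mitochondrial and cytosolic enzymes that break down leucine, isoleucine and valine. The 10 genes described here are Bcat1, Bcat2, Bckdha, Bckdhb, Bckdk, Dbt, Ivd, Mccc1, Mccc2 and Hibadh. They were chosen by name, as rows whose symbol equals one of these in every deposited table, and all 10 were found among the 45151 symbols present in all 18 tables. RNA-seq was carried out on 6 samples of iWAT (inguinal white adipose tissue) adipocytes, 6 of eWAT (epididymal white adipose tissue) adipocytes and 6 of BAT (brown adipose tissue), all from wild type male C57BL/6J mice 16 weeks of age that were fed regular chow. White adipocytes were the floating cells left by collagenase digestion, whereas BAT was frozen as whole tissue, although the cell type label of those samples reads BAT adipocytes. Depot and preparation therefore cannot be told apart in a comparison with BAT, nor can fewer cells of a type be told apart from less RNA per cell.

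The pathway starts with the branched-chain aminotransferases, Bcat1 in the cytosol and Bcat2 in mitochondria, which move the amino group of each amino acid onto 2-oxoglutarate. The branched-chain ketoacid dehydrogenase (BCKDH) complex then removes a carboxyl group irreversibly. It holds the E1 subunits Bckdha and Bckdhb, the E2 core Dbt and the E3 subunit Dld, and it is switched off by the kinase Bckdk and on by the phosphatase Ppm1k. Past this step the routes part: isovaleryl-CoA dehydrogenase (Ivd) and methylcrotonyl-CoA carboxylase (Mccc1 and Mccc2) act on leucine, and 3-hydroxyisobutyrate dehydrogenase (Hibadh) acts on valine. Adipose tissue is known to take up these amino acids, as a source of carbon for lipid in white fat and as a fuel in active brown fat.

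On the mm9 build of the mouse genome, the merged rows of Bcat1 (144942355 to 145024704, minus strand) and Hibadh (52496222 to 52590383, minus strand) lie on chromosome 6. Those of Bcat2 (52825523 to 52845080, plus strand), Bckdha (26414871 to 26443780, minus strand) and Bckdk (135047587 to 135053178, plus strand) lie on chromosome 7, and those of Dbt (116215988 to 116252899, plus strand) and Mccc1 (35858218 to 35899600, minus strand) on chromosome 3. Ivd lies on chromosome 2 (118687690 to 118710952, plus strand), Bckdhb on chromosome 9 (83818757 to 84017847, plus strand) and Mccc2 on chromosome 13 (100718487 to 100785594, minus strand). The counts cover the exons of these rows.

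Each table gives read counts and RPKM (reads per kilobase of row and per 1000000 reads). A row is a gene with merged exons in iWAT and BAT, but a single transcript in eWAT, where the most-read transcript of each gene was used. The merged row was 5.69 times as long as the eWAT transcript for Hibadh, 3.58 times for Mccc1, 2.25 times for Bcat2, 2.23 times for Mccc2, 1.77 times for Ivd and between 1 and 1.19 times for the other 5 genes, and only Bckdha had the same row everywhere. Levels are therefore given in RPM, the reads per 1000000 of a sample's total (which was 22929576 to 34512470 reads), and eWAT comparisons carry this difference in counting. A transcript holds at most the reads of its merged gene, so the counting can lower the read count of a gene in eWAT but not raise it. Brown adipocyte and adipocyte markers followed the labels. The summed RPKM of 5 brown adipocyte markers lay between 2714 and 3389 in BAT, against 76.8 to 121 in iWAT and 11.4 to 24.5 in eWAT. That of 5 adipocyte markers was at least 8198 in iWAT and 3385 in eWAT and at most 1408 in BAT. Stromal and endothelial markers were not confined to the whole tissue. The sum of 5 stromal markers was 529 to 781 in iWAT, 216 to 319 in eWAT and 40.5 to 58.3 in BAT. Of these 5, 3 were higher and 2 lower in iWAT than in BAT. The sum of 5 endothelial markers was 25.5 to 145 in iWAT, 81.3 to 211 in eWAT and 46.15 to 91.9 in BAT. All these sums of RPKM carry the difference in row length in eWAT. The eWAT sample of mouse 15 stood apart, with a summed RPKM of 2018 for 6 macrophage markers against 139.5 to 483.7 in the other eWAT samples, and with the lowest sum for adipocyte markers. The BAT sample of mouse 12 held the most reads of skeletal muscle markers, with a summed RPKM of 1340 against a BAT median of 26.2.

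Between iWAT adipocytes and BAT, the pathway did not move one way. All 10 genes differed (edgeR quasi-likelihood test, Benjamini-Hochberg adjusted p under 0.05), 5 higher and 5 lower in iWAT, in a comparison in which 67.8% of the 19046 genes tested differed, 34.2% higher and 33.6% lower in iWAT. The share of the 10 genes is to be read against this background. The first enzymes, Bcat1 and Bcat2, and the leucine enzymes Ivd, Mccc1 and Mccc2 were higher in iWAT, and the BCKDH subunits Bckdha, Bckdhb and Dbt, the kinase Bckdk and Hibadh were higher in BAT. The median log2 fold change was -0.02 over the 10 genes and 0.01 over all genes tested, and the ranges of the 6 samples did not overlap for 8 of the 10, against 47.9% of all genes tested. With a fold of at least 1.5 as well, 6 of the 10 differed, against 49.1% of all genes. The fold changes rest on TMM scaling, which sets the bulk of genes near a fold change of 1. RPM values and their ranges do not carry it. The TMM factors were 1.05 to 1.17 in iWAT and 0.849 to 0.996 in BAT, so overlap can differ on that scale. With the library size alone (added once the data had been seen), the median of all genes was 0.28 and the genes that differed split into 8830 higher and 4555 lower in iWAT instead of 6507 and 6408, while each of the 10 kept its direction and 9 differed, all but Dbt.

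**Figure D1:**
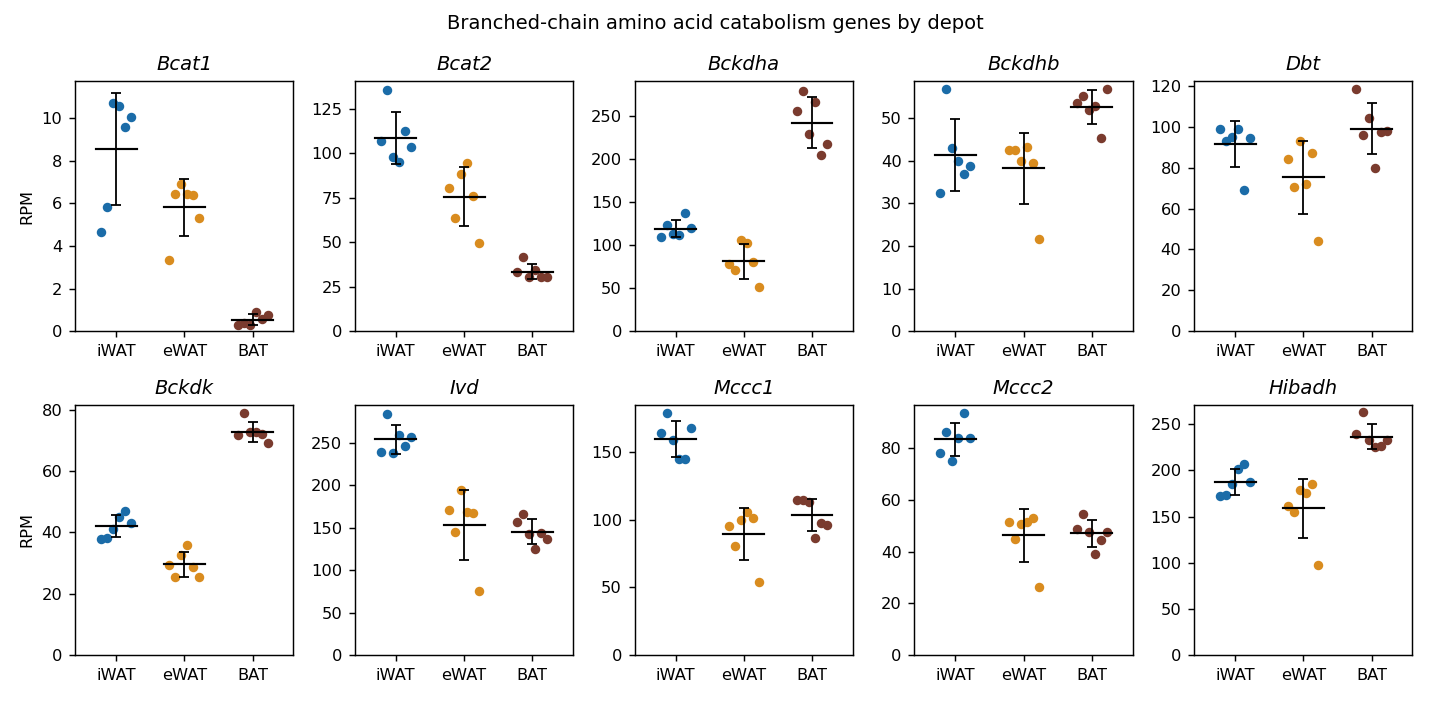
RPM (y axis, linear from 0) of the 10 genes in each of the 18 samples, with 6 points for each depot ordered by mouse number, the mean as a horizontal line and the SD as a bar. Bcat1 and Bcat2 lie lowest in BAT, Bckdha and Bckdk lie highest there, and the last eWAT point, mouse 15, is the lowest of its depot for 9 of the genes, all but Bcat1.

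The widest difference was at the first step. Bcat1 was at 4.67 RPM in the lowest iWAT sample, 9.83 at the median and 10.7 in the highest. In BAT it was at 0.290, 0.480 and 0.917, from 8 to 28 reads per sample, so each BAT sample lay below every iWAT sample. Its log2 fold change was 3.74 (SE 0.29, adjusted p = 5.20e-08 from edgeR), or 13.4-fold. Bcat2, the mitochondrial isoenzyme, ranged from 95.0 to 135 RPM in iWAT with a median of 105, and from 30.5 to 41.9 in BAT with a median of 31.8. The groups again stood apart, with a log2 fold change of 1.43 (SE 0.11, adjusted p = 4.26e-08 from edgeR). Per length, Bcat2 was by far the more abundant isoenzyme in each depot. The ratio of Bcat2 RPKM to Bcat1 RPKM was 21.5 to 55.5 in iWAT and 90.03 to 272 in BAT, without overlap. On the log2(RPKM + 0.1) scale the ratio was 0.98 lower in iWAT (exact two-sided permutation test, p = 0.0152, adjusted p = 0.0202 over 4 ratios). The RPKM of Bcat1 in BAT lies below this pseudocount. With no pseudocount the difference was -2.38, and with a pseudocount of 1 it turned to 0.74.

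The BCKDH complex showed the opposite pattern, and its subunits differed by unequal amounts. Bckdha, the E1 alpha subunit, ranged from 109.7 to 137 RPM in iWAT with a median of 116.5, and from 205 to 279 in BAT with a median of 242. No iWAT sample reached the lowest BAT sample, and Bckdha fell by 1.29 on the log2 scale in iWAT (SE 0.09, adjusted p = 3.05e-08 from edgeR). Bckdhb, the E1 beta subunit, ranged from 32.4 to 57.0 in iWAT with a median of 39.3 and from 45.3 to 56.8 in BAT with a median of 53.2. Here the ranges overlapped, since 1 iWAT sample, that of mouse 11, lay above every BAT sample in RPM. The log2 fold change was -0.62 (SE 0.12, adjusted p = 0.000301 from edgeR). Dbt, the E2 core, ranged from 69.1 to 98.8 in iWAT with a median of 94.8 and from 80.0 to 119 in BAT with a median of 97.7. These ranges overlap widely, and the log2 fold change of -0.39 (SE 0.12, adjusted p = 0.0125 from edgeR) was the least firm of the 10. It was -0.17 with the mouse number as a block (adjusted p = 0.217), -0.11 with no TMM scaling (adjusted p = 0.349) and -0.31 without the iWAT sample of mouse 14, in which Dbt was lowest (adjusted p = 0.0275, also added later).

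The RPKM of Bckdha was 1.99 to 3.44 times that of Bckdhb in iWAT and 3.54 to 4.66 times in BAT, and the log2 ratio was 0.65 lower in iWAT (exact permutation test, p = 0.00217, the smallest that 6 against 6 samples allow, adjusted p = 0.00866). The merged row of B3gnt8, a glycosyltransferase gene on the opposite strand, reaches into Bckdha on chromosome 7 of mm9 (26411576 to 26434413, against 26414871 to 26443780 for Bckdha). It held between 86.4% and 101% as many reads as Bckdha in the iWAT and BAT samples. The RefSeq transcript of B3gnt8, which ends before Bckdha, held 22 to 122 reads per eWAT sample, against 1650 to 2868 on a longer transcript that runs into Bckdha. The way reads were assigned to strands is not given in the sources used here, so reads of the 2 genes cannot be told apart where they overlap. In the same way, Gm4596 lies within Dbt on the opposite strand with 10.3% to 24.8% as many reads as Dbt, and the rows B230207O21Rik and LOC100502986 lie within Mccc1 with 9.61% to 11.5% as many reads as Mccc1.

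The kinase that inhibits the complex moved with the subunits. Bckdk ranged from 37.7 to 47.1 RPM in iWAT with a median of 42.1, and from 69.1 to 79.0 in BAT with a median of 72.3. The groups were far apart, with a log2 fold change of -1.06 (SE 0.07, adjusted p = 1.90e-08 from edgeR). Ppm1k, the opposing phosphatase, was at 15.7 ± 3.37 RPM in iWAT (SD, n = 6) and 15.2 ± 2.95 in BAT (SD, n = 6), with a log2 fold change of -0.23 (adjusted p = 0.285 from edgeR, interval -0.58 to 0.13). The RPKM of Bckdk was 3.62 to 9.16 times that of Ppm1k in iWAT and 7.36 to 13.8 times in BAT. The log2 ratio was 0.84 lower in iWAT (exact permutation test, p = 0.0108, adjusted p = 0.0202), although the ranges overlapped. Dld, the E3 subunit that the complex shares with pyruvate dehydrogenase and 2-oxoglutarate dehydrogenase, fell by 1.90 on the log2 scale in iWAT (SE 0.10, adjusted p = 1.65e-09 from edgeR). Klf15, a transcription factor known to act on amino acid catabolism genes, was higher in iWAT by 1.28 (SE 0.14, adjusted p = 2.62e-06 from edgeR).

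Among the leucine enzymes the order turned again, and all of Ivd, Mccc1 and Mccc2 were higher in iWAT. Ivd ranged from 238 to 284.5 RPM in iWAT with a median of 252 and from 125 to 167 in BAT with a median of 143, with a log2 fold change of 0.54 (SE 0.10, adjusted p = 0.000233 from edgeR). Mccc2, the beta subunit of the carboxylase, ranged from 75.0 to 93.5 in iWAT with a median of 83.9 and from 39.2 to 54.7 in BAT with a median of 47.6, with a log2 fold change of 0.56 (SE 0.10, adjusted p = 0.000202 from edgeR). Mccc1, the biotin-carrying alpha subunit, ranged from 144.5 to 179 in iWAT with a median of 161 and from 86.4 to 114 in BAT with a median of 105, with a log2 fold change of 0.35 (SE 0.11, adjusted p = 0.0110 from edgeR). No range overlapped in RPM, which does not carry the TMM factors of the test. Divided by these factors, the ranges of Mccc1 do overlap slightly. The iWAT sample of mouse 13 (144.5 RPM, factor 1.093) then lies just below the BAT sample of mouse 8 (112.9 RPM, factor 0.849). The call of Mccc1 was lost with upper-quartile scaling (0.23, adjusted p = 0.0772) and when eWAT joined the fit (0.30, adjusted p = 0.0651). The ratio of Mccc1 to Mccc2 differed by 0.20 on the log2 scale, lower in iWAT (exact permutation test, p = 0.0217, adjusted p = 0.0217), the narrowest difference of the 4 ratios. Hibadh, the valine enzyme, ranged from 173 to 207 in iWAT with a median of 186 and from 226 to 263 in BAT with a median of 233. It fell by 0.60 in iWAT (SE 0.08, adjusted p = 1.24e-05 from edgeR), without overlap.

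The 3 leucine enzymes, which moved together between iWAT and BAT, also had a feature in common in the RefSeq promoter sequences. A CCAAT box (CCAAT, or ATTGG on the other strand) was counted in the 250 bases before each of 32851 annotated starts. Of these, 33.85% held at least 1 and 2.79% held at least 3. Of the 12 promoters listed for 9 of the 10 genes (Dbt has no entry), 7 held at least 1, and only those of Ivd (4 boxes), Mccc1 (3) and Mccc2 (3, of which 2 overlap) held at least 3. Bckdhb, higher in BAT, held 2 at 1 of its promoters, and 10.09% of all promoters held at least 2. Bckdk and Hibadh, higher in BAT, held 1 each, as did Bcat1, higher in iWAT, at 1 of its promoters. The promoters of Bckdha, higher in BAT, and of Bcat2, higher in iWAT, held none. The count of boxes thus did not follow direction over all 9 genes. The motif was chosen from 6 after the values were seen, and a match describes letters, not a site in use. The 4 sequences below are given 5′ to 3′ on the gene's strand, with CCAAT boxes in capitals, from RefSeq promoters of build GRCm38.p6 that match mm9 exactly. They show the 3 promoters rich in this motif beside 1 that holds none, that of Bckdha. They end at the last base before the annotated row, which for Ivd leaves 1 of its boxes out.
Ivd, chr2:118687480-118687689, plus strand: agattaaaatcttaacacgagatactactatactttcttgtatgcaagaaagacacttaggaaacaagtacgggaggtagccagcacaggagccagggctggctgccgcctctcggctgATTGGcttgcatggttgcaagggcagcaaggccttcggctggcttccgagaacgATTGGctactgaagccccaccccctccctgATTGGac
Mccc1, chr3:35899601-35899850, minus strand: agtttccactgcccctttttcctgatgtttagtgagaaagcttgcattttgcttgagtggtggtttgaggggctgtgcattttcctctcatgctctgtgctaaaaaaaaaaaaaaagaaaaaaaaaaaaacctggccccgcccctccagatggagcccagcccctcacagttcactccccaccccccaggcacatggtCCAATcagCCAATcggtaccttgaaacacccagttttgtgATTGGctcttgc
Mccc2, chr13:100785595-100785844, minus strand: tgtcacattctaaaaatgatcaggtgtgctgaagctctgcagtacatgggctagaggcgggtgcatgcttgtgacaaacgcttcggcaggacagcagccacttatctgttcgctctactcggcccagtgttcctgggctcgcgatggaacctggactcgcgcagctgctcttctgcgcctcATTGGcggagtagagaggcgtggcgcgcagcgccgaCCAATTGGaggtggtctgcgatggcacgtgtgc
Bckdha, chr7:26443781-26444030, minus strand: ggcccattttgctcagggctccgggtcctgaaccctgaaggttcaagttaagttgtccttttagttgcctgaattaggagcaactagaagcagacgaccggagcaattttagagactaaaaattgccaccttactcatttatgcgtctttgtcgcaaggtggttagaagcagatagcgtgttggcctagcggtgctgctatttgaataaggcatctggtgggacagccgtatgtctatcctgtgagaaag

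**Figure D2:**
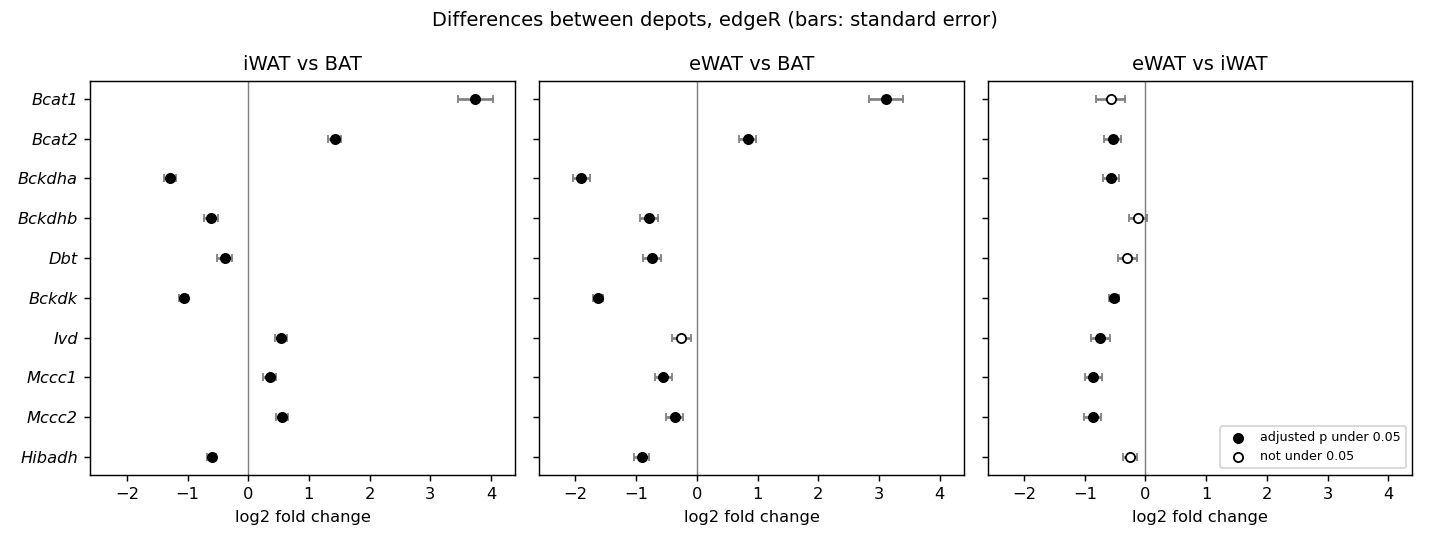
Log2 fold change (x axis) of the 10 genes in pathway order (y axis) for the 3 comparisons of depots, with the standard error as a bar. Filled points have an adjusted p under 0.05 in edgeR: 10 genes in iWAT against BAT, 9 in eWAT against BAT and 6 in eWAT against iWAT, where every point lies below 0. Of all genes tested, 67.8%, 70.3% and 25.6% passed in the same order.

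The rest of the pathway and its neighbours were taken from lists of genes given whole. Of the 4 other leucine enzymes, 1 rose and 3 fell in iWAT. Oxct1, which uses ketone bodies, was higher (log2 fold change 0.88), and Acat1 (-1.25), a mitochondrial thiolase, was lower. Of the 7 other isoleucine and valine enzymes, 2 rose and 5 fell, among them Acaa2 (-3.82), Echs1 (-1.08) and Acad8 (-0.81), the isobutyryl-CoA dehydrogenase. Acaa2 and Echs1 also serve fatty acid oxidation. Of the 6 genes that carry propionyl-CoA to succinyl-CoA, 5 fell and none rose, with Mmaa (-1.75), Mcee (-1.15) and Pccb (-0.91) falling most. Mut, the mutase of this route, was at -0.15 (adjusted p = 0.229 from edgeR).

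The tricarboxylic acid cycle and the pyruvate dehydrogenase complex moved further and nearly all one way. All 15 cycle genes fell in iWAT, with a median log2 fold change of -2.32 and with Sucla2 (-3.02) and Suclg1 (-2.91), subunits of succinyl-CoA synthetase, among them. Of 10 genes of pyruvate dehydrogenase and its kinases and phosphatases, 8 fell and 2 rose, with a median of -2.001. Pdk3 was higher in iWAT (3.30), and Pdk4 (-3.16) and Pdhb (-2.48) were lower. Even the largest decrease among the 10 catabolism genes, that of Bckdha (-1.29), was smaller in size than the smallest among the cycle genes, that of Sdhc (-1.498, named like Mut after values were seen). The transporters of branched-chain amino acids split in the other direction, with 4 higher and 2 lower in iWAT and a median of 2.09. Slc7a8 (3.50), Slc43a1 (3.37) and Slc7a5 (2.57), which carry amino acids across the cell surface, were higher. Slc43a2 (-2.23) and Slc25a44 (-0.81), the mitochondrial carrier of these amino acids, were lower and are named here after their values were seen. Slc7a5 was low in both depots, at 1.92 RPM in iWAT and 0.267 in BAT.

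**Figure D3:**
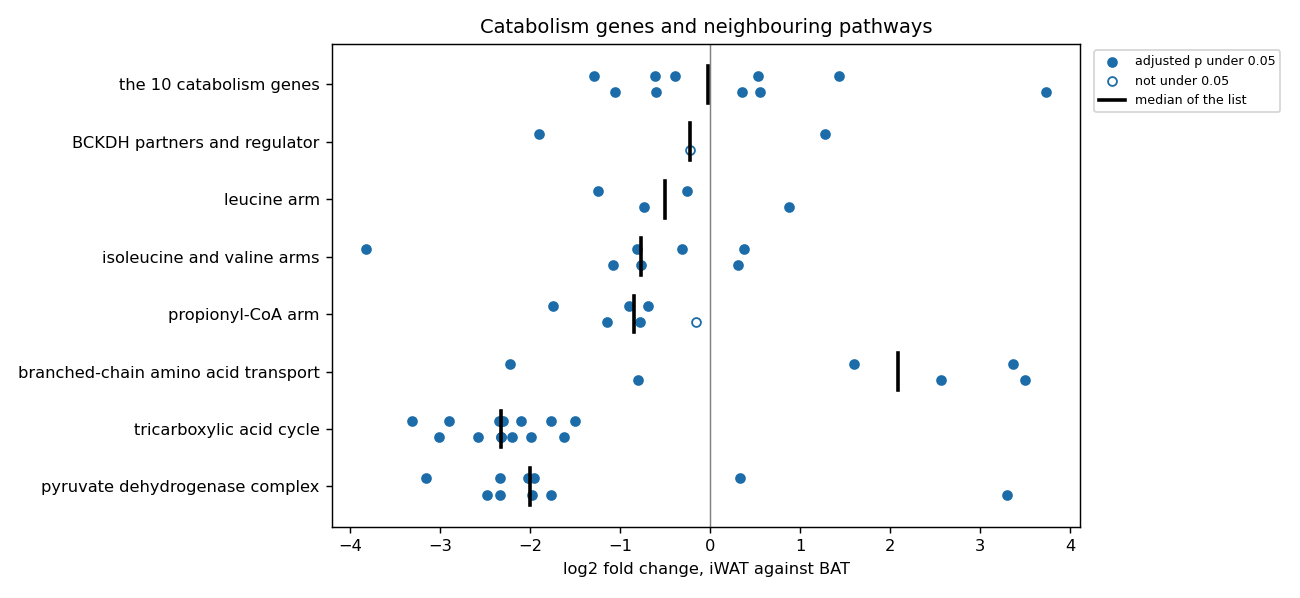
Log2 fold change of iWAT against BAT (x axis) for single genes (points) of the 10 catabolism genes and 7 neighbouring lists (y axis), with filled points for an adjusted p under 0.05 and a black line at each list's median. The 10 catabolism genes lie on both sides of 0 around a median of -0.02, and all 15 cycle genes lie at or below -1.498 around a median of -2.32.

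Between eWAT adipocytes and BAT, 9 of the 10 genes differed, 2 higher and 7 lower in eWAT, where 70.3% of the 18383 genes tested differed, 35.6% higher and 34.7% lower. The median log2 fold change was -0.65 over the 10 genes and 0.03 over all genes tested. In RPM, 6 of the 10 had no overlap between the depots, against 51.5% of all genes tested. With the library size alone, the median of all genes was 0.36, the split was 8946 higher and 4542 lower instead of 6542 and 6375, and 7 of the 10 genes differed. Bcat1 was at 3.34 RPM in the lowest eWAT sample, 6.43 at the median and 6.90 in the highest, which gave a log2 fold change of 3.12 (SE 0.27, adjusted p = 9.30e-09 from edgeR). Bcat2 ranged from 49.5 to 94.7 with a median of 78.3, and its log2 fold change was 0.84 (SE 0.14, adjusted p = 2.60e-05 from edgeR). It turned to -0.41 with the transcript of highest RPKM in place of the most-read one. Both isoenzymes stood above every BAT sample on the most-read rows. The macrophage markers also moved in eWAT: all 6 were higher than in BAT (median log2 fold change 4.37) and than in iWAT (2.90), with a median summed RPKM of 244.6 in eWAT, 37.5 in iWAT and 25.7 in BAT. These sums carry the difference in row length between eWAT and the other depots. The part of macrophage RNA in the eWAT values was not tested.

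The BCKDH genes were lower in eWAT than in BAT. Bckdha ranged from 51.3 to 105 RPM in eWAT with a median of 79.1, and fell by 1.91 on the log2 scale (SE 0.14, adjusted p = 7.01e-10 from edgeR). Its own row is the same in all samples, but the scaling factors of this fit rest on genes whose rows differ. In a fit of identical rows alone Bckdha was at -1.80. It was at -2.302 with the row length as an offset and at -1.43 with the transcript of highest RPKM. Bckdk ranged from 25.5 to 35.9 in eWAT with a median of 29.1 and fell by 1.63 (SE 0.09, adjusted p = 9.68e-12 from edgeR). Bckdhb fell by 0.79 (adjusted p = 0.000101), Dbt by 0.74 (adjusted p = 0.000339) and Hibadh by 0.91 (adjusted p = 1.70e-06, all from edgeR). Hibadh turned to 1.201 with the row length as an offset and to 1.90 on log2(RPKM + 0.1). Dbt lost its call with the transcript of highest RPKM (-0.30, adjusted p = 0.0979), and Bckdhb on log2(RPKM + 0.1) in limma (-0.34, adjusted p = 0.0506).

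The leucine enzymes overlapped with BAT in eWAT, and their direction depended on row length. Mccc1 ranged from 53.7 to 105 RPM in eWAT with a median of 97.3, and Mccc2 from 26.3 to 52.8 with a median of 51.1. They had log2 fold changes of -0.55 (adjusted p = 0.00175) and -0.36 (adjusted p = 0.0269 from edgeR). The latter was -0.35 with the mouse number as a block (adjusted p = 0.0617) and -0.02 with no TMM scaling (adjusted p = 0.872), where Mccc1 was at -0.21 (adjusted p = 0.149). With the row length as an offset Mccc1 turned to 0.89 (adjusted p = 2.56e-05) and Mccc2 to 0.40 (adjusted p = 0.0200), and on log2(RPKM + 0.1) they were at 1.59 and 1.09. Ivd ranged from 75.3 to 194 with a median of 168, and its log2 fold change of -0.26 did not pass (adjusted p = 0.155 from edgeR, interval -0.57 to 0.05).

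Between the white depots, no gene of the 10 was higher in eWAT on read counts, which the use of a single transcript in eWAT can only lower. Lower values in eWAT passed the test for 6 genes, in a comparison in which 25.6% of the 18383 genes differed, 12.3% higher and 13.4% lower in eWAT, and the median log2 fold change was -0.56 over the 10 genes and -0.003 over all genes tested. Mccc2 fell by 0.87 (adjusted p = 0.000205), Mccc1 by 0.86 (adjusted p = 0.000254) and Ivd by 0.75 (adjusted p = 0.00226, all from edgeR), each without overlap between the 6 iWAT and 6 eWAT samples. Bckdha fell by 0.57 (adjusted p = 0.00463), Bcat2 by 0.54 (adjusted p = 0.00677) and Bckdk by 0.52 (adjusted p = 0.000282, all from edgeR), also without overlap. The share of all genes tested without overlap was 10.5%, and with a fold of at least 1.5 as well 3 of the 10 differed, against 16.9% of all genes. Other rows ended several of these calls. With the transcript of highest RPKM, Bckdha was at -0.13 (adjusted p = 0.451) and Bckdk at -0.16 (adjusted p = 0.145). With the row length as an offset, Ivd was at -0.34 (adjusted p = 0.0928), Mccc2 at -0.14 (adjusted p = 0.448) and Mccc1 at 0.56 (adjusted p = 0.00365). Bcat1 was at -0.57 (adjusted p = 0.0821, interval -1.04 to -0.11), Dbt at -0.30 (adjusted p = 0.167), Hibadh at -0.26 (adjusted p = 0.115) and Bckdhb at -0.13 (adjusted p = 0.564, all from edgeR), and these did not pass. With the row length as an offset, Bcat1 (-0.74, adjusted p = 0.0133), Dbt (-0.71, adjusted p = 0.00124) and Bckdhb (-0.39, adjusted p = 0.0340, all from edgeR) did pass. Bckdhb also passed with the transcript of highest RPKM (-0.99, adjusted p = 3.83e-05 from edgeR). The eWAT comparisons share their samples with the others and are not independent of them.

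The deposited RPKM gives another picture for the same samples, because the rows differ in length. For Hibadh the mean RPKM was 18.5 ± 1.38 in iWAT (SD, n = 6), 88.8 ± 18.05 in eWAT (SD, n = 6) and 23.2 ± 1.35 in BAT (SD, n = 6). Divided by the length of the eWAT transcript in all 3 depots, the same reads gave 105 ± 7.86, 88.8 ± 18.05 and 132 ± 7.70 in the same order. The difference of eWAT from iWAT in Hibadh was -0.26 on read counts, 1.83 with the row length as an offset and 2.23 on log2(RPKM + 0.1). Mccc1 turned in the same way, from -0.86 to 0.56 and 0.96, and Bcat2 from -0.54 to 0.21 and 0.62. Bckdha, whose row does not change, was at -0.57 on read counts, -0.99 with the offset and -0.58 on RPKM. The offset setting computes the TMM factors anew on length-scaled counts, so it also moves genes whose row is the same. A merged row can also hold reads that the chosen transcript does not. In eWAT, 3 transcripts of Hibadh and 9 of Bcat2, the most-read one included, had reads within 10% of the highest, whereas Ivd had only 1.

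**Figure D4:**
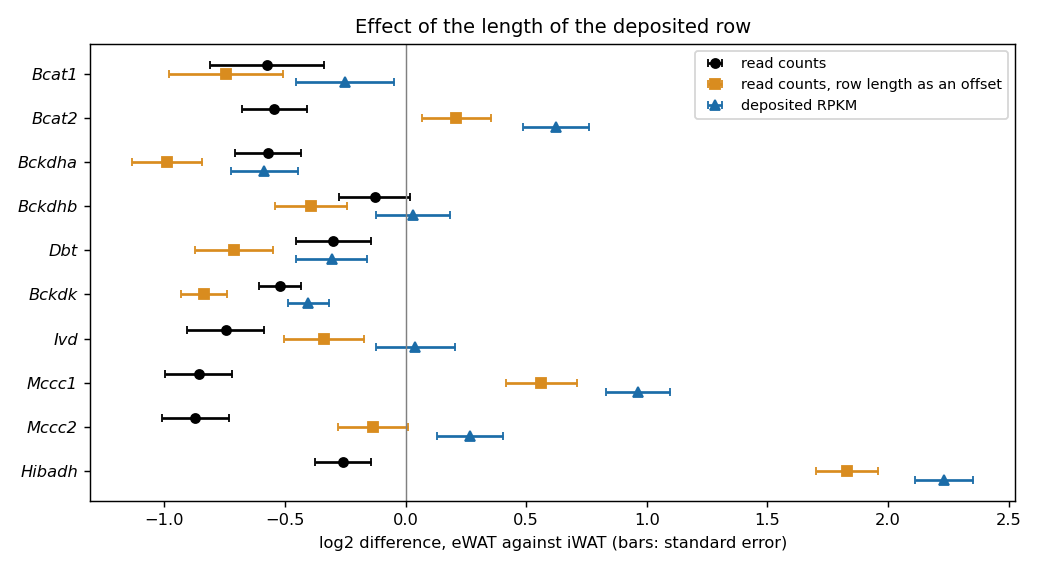
Log2 difference of eWAT against iWAT (x axis) for the 10 genes (y axis), from read counts (circles), read counts with the row length as an offset (squares) and the deposited RPKM (triangles), with standard errors as bars. Hibadh moves from -0.26 to 2.23 between the first and the last, whereas Bckdha stays below 0 on all 3.

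On the common transcript length, the order of the genes could be set out within each depot. The order in iWAT and BAT depends on that choice of length. On the deposited mean RPKM, Hibadh in iWAT (18.5) lay below Bckdha (67.2), Ivd (39.2), Bcat2 (27.8), Dbt (27.7) and Bckdhb (25.2). In BAT, Hibadh (23.25) lay below Bckdha (136.6) on that scale. In iWAT, Hibadh was highest (105 ± 7.86 length-matched RPKM, SD, n = 6), and was above Ivd (69.3 ± 4.75) in every sample without overlap. Ivd, Bckdha (67.2 ± 5.78) and Bcat2 (62.6 ± 8.37) followed with overlapping ranges. In BAT, Bckdha (137 ± 16.5) and Hibadh (132 ± 7.70) came first and could not be ordered, with Bckdha higher in 3 of 6 samples, and both stood clear of Ivd (39.6 ± 4.02). Bcat2 ranked 9 of 10 in BAT (19.4 ± 2.56), but ranked 4 in iWAT and 3 in eWAT (43.6 ± 9.58). In eWAT, Hibadh (88.8 ± 18.05) was above Bckdha (45.9 ± 11.4) in each of the 6 samples. Bcat1 was last in all 3 depots, at 1.09 ± 0.336 (iWAT), 0.742 ± 0.169 (eWAT) and 0.0683 ± 0.0328 (BAT), and Bckdk was next to last in both white depots.

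Within eWAT, 1 sample lay low across the genes. In the eWAT sample of mouse 15, all 10 lay below their depot mean, by a median of 0.69 on the log2(RPKM + 0.1) scale. Against the other 5 eWAT samples the median was -0.82 for the 10 genes and -0.04 for the 13104 genes whose mean RPKM in eWAT reached 1. Ivd deviated most (-0.97) and Bcat1 least (-0.08). This is the sample with the high macrophage marker sum, and the epididymis markers, read in no iWAT sample, had a summed RPKM of 68.4 in it and 76.0 in that of mouse 14. Their part in the result was not tested. Without mouse 15 in eWAT, 2 genes were higher and 7 lower than in BAT and 6 lower than in iWAT, as with it, and the same counts were found without mice 14 and 15. Over all genes, 12783 and 4135 of 18236 differed without mouse 15, and 12254 and 3503 of 18133 without both mice. The muscle-rich BAT sample of mouse 12 had all but 1 of the genes below the depot mean by small amounts (median -0.07). Without it, all 10 genes differed between iWAT and BAT, against 11917 of the 18491 genes tested.

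**Figure D5:**
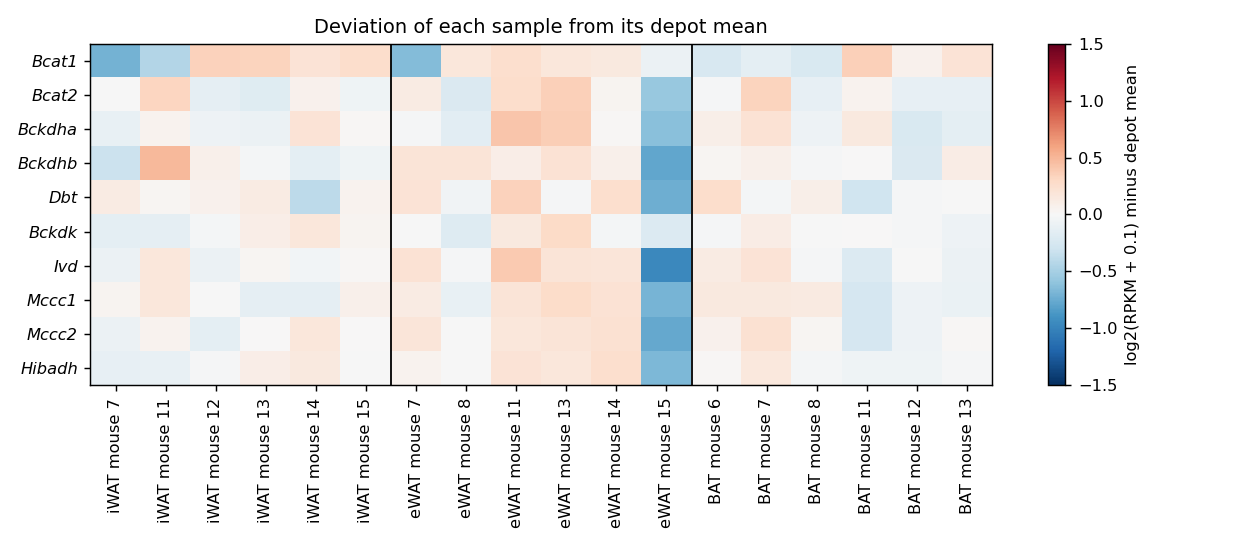
Deviation of each gene (y axis) from its depot mean in each of the 18 samples (x axis), in log2(RPKM + 0.1), with red above and blue below the mean and black lines between iWAT, eWAT and BAT. The column of mouse 15 in eWAT is blue for all 10 genes, by a median of -0.69, and no other column reaches this.

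Over the 18 samples, with depot means removed, the 45 pairs of genes had a median Pearson r of 0.68, and without mouse 15 in eWAT it was 0.35. Within depots the median was 0.12 in iWAT, where 25 of the 45 were above 0 and the lowest was -0.92, 0.39 in BAT and 0.88 in eWAT. The eWAT value includes mouse 15 and was not computed without it. The points share libraries and depth, so these values describe the samples and are given without a test. Among 10338 genes whose mean RPKM reached 1 in every depot, the 2 non-members whose pattern was most like that of Dbt were Mut (r = 0.961 over 18 samples, 0.918 without mouse 15 in eWAT) and Acss3 (0.961 and 0.929). Acat1 (0.961 and 0.816) and Sgce (0.952 and 0.769) were most like Hibadh, Aco1 (0.955 and 0.90) and Pcca (0.943 and 0.835) most like Mccc1, and Adhfe1 (0.970 and 0.841) and Ces1f (0.961 and 0.766) most like Ivd. Mut, Acat1 and Pcca are themselves enzymes of the wider pathway. Dgat1 (0.935 and 0.882) and Csad (0.923 and 0.896) were most like Bcat2, Fmo1 (0.939 and 0.755) and Adhfe1 (0.930 and 0.680) most like Mccc2, and LOC100504674 (0.931 and 0.916) and Tmem223 (0.913 and 0.894) most like Bckdk. For Bckdha they were B3gnt8 (0.989 and 0.990), whose row overlaps that of Bckdha, and Adig (0.951 and 0.903). Bcat1, with Chmp7 and Cog8 (0.893 each), and Bckdhb, with 2700081O15Rik and Ybx2 (0.841 each), had the lowest values.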

How the data were processed

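The authors deposited read counts (reads per row, not normalized) and RPKM from wild type iWAT adipocytes, eWAT adipocytes and BAT. According to the study's methods, NEBNext Ultra RNA libraries were sequenced on an Illumina HiSeq and reads were mapped to mm9 with the Genomatix Genome Analyzer. The submitters' processing notes name cutadapt 1.16 and HISAT2 2.1.0. How reads were counted is not given in the sources used here. The deposited RPKM equals the count over row length and 1 total of reads per sample, which was used as library size.

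Genes reaching 10 reads in 6 or more samples were tested on counts with edgeR 4.0.16 (R 4.3.3; glmQLFit, glmQLFTest, TMM), with Benjamini-Hochberg adjustment over all genes and a threshold of 0.05. iWAT and BAT were fitted as 12 samples, and eWAT comparisons with all 18 and 1 row per symbol. Standard errors were derived from the F statistic, and intervals are 1.96 standard errors to each side. On simulated counts for iWAT against BAT (18788 genes), 63 of 100 genes changed 2-fold, 41 of 100 changed 1.5-fold and 3 of 18593 unchanged genes were called. No other genes were changed there, whereas 67.8% of genes differed in the data, so these rates need not carry over. Ratios were tested with exact permutation tests (scipy 1.17.1). Ranges between depots were compared as reads per library total over all genes tested. DESeq2 1.42.0, limma 3.58.1 and other settings were alternatives.

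The 10 genes and all lists were chosen with earlier results of these data known. All 10 are named, with Ppm1k, Dld, Klf15, up to 3 genes per list with the largest change between iWAT and BAT, and the 2 genes most correlated with each. A few genes of these lists are not reported here by name. Titles carry a number, taken here as that of the mouse. Same-numbered samples (4, 4 and 5 pairs) had correlations of deviations between -0.308 and 0.100, so the block was kept as an alternative. P-values measure the spread between samples, and the labels do not say how these were extracted in batches. Depth limits Bcat1 in BAT most, and read counts cover counting error only, without molecular identifiers.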

Additional observations from a re-analysis of the deposited data

Results flagged for a closer look

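For each of the 10 genes and each depot, the RPKM of the highest and of the lowest of the 6 samples was set against the others, by its gap to the nearest sample relative to the whole range (Dixon's critical value for 6 samples). A sample lay this far from the others in 6 of 30 sets, and chance flags about 1 in 20 groups, or 1.5 of the 30.

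In 3 of the 6 this was mouse 15 in eWAT, whose RPKM was 14.7 for Bckdhb, against 26.8 to 29.5 in the other eWAT samples, 12.4 for Mccc2, against 21.1 to 24.9, and 54.3 for Hibadh, against 86.4 to 104. The BAT sample of mouse 7 was high for Bcat2, with 10.7 against 7.82 to 8.85, and for Hibadh, with 25.8 against 22.2 to 23.5. The iWAT sample of mouse 14 was low for Dbt, with 20.9 against 28.2 to 29.9. Without mouse 7 in BAT or without mouse 14 in iWAT, alternatives added after the data were seen, 10 genes differed between iWAT and BAT. Over all genes tested, 11949 of 18473 and 12861 of 18643 differed in the same order.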

How the results depend on the processing

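The number of the 10 genes that differed was 10 for iWAT against BAT, 9 for eWAT against BAT and 6 for eWAT against iWAT. Over all genes tested, the share that differed was 67.8%, 70.3% and 25.6% in the same order. With a fold of at least 1.5 the number was 6 in the first and 3 in the last, against 49.1% and 16.9% of all genes tested. With identical rows only, where just Bckdha can be tested, it was 1 in each eWAT comparison. The other alternatives left these counts within 1.5 times, leaving out mouse 12 in BAT, mouse 14 or 15 in eWAT, or both, included. The counts over all genes moved more for eWAT against iWAT, from 4714 of 18383 in the main fit. They were 9652 with the length offset, where 7 of the 10 genes differed, and 9661 in limma on log2(RPKM + 0.1), where 5 did. With the transcript of highest RPKM it was 10523 of 18266, and 5 of the 10. Sample numbers did not deviate together in every pair. With the replicate block the counts were 9, 8 and 6 of the 10 genes. Over all genes tested they were 11345 of 19046, 11401 of 18383 and 3153 of 18383. Among the 10 genes the block changed no call other than those of Dbt (iWAT against BAT) and Mccc2 (eWAT against BAT). For iWAT against BAT no gene changed direction in any alternative, and 6 values lost the call (Dbt in 4 settings, Mccc1 in 2). The log2 ratio of Bcat2 to Bcat1 turned to 0.74 with a pseudocount of 1. For eWAT against BAT, limma on log2(RPKM + 0.1), limma on log2(RPKM + 1) and the length offset gave Ivd 0.85, 0.82 and 0.17, Mccc1 1.59, 1.51 and 0.89, Mccc2 1.09, 1.03 and 0.40, and Hibadh 1.90, 1.86 and 1.201. Ivd was at 0.0805 with no scaling beyond the library size, and Bcat2 at -0.41 with the transcript of highest RPKM. For eWAT against iWAT the same 3 settings gave Bcat2 0.62, 0.61 and 0.21, Mccc1 0.96, 0.92 and 0.56, and Hibadh 2.23, 2.18 and 1.83, and the 2 limma settings gave Bckdhb 0.0308 and 0.0306, Ivd 0.0403 and 0.0411 and Mccc2 0.27 and 0.26. The transcript of highest RPKM gave Dbt 0.10 and Hibadh 0.17, and leaving out mice 14 and 15 gave Bckdhb 0.00594. In this comparison the length offset also added calls for Bcat1, Dbt and Bckdhb, and the transcript of highest RPKM added a call for Bckdhb. RPKM and the offset divide by row length by construction. The offset setting also computes the TMM factors anew on length-scaled counts, so its values are not the effect of row length alone. In eWAT against iWAT, Dbt, whose rows are nearly equal in length, went from -0.30 to -0.71 with it. The cause of the other turns was not tested. Bcat1 in BAT rests on 8 to 28 reads per sample, and its fold is the least precise.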
